A study of Homo sapiens with 9 samples.

Results

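The genes described here are 38 genes of the G1/S transition and of DNA replication, a list given by name: the MCM helicase subunits and their loading factors, fork proteins, ribonucleotide reductase, E-type cyclins and E2F factors, and S phase histone, chromatin and repair genes. All 38 were found among the 58096 gene identifiers of the deposited tables, by GENCODE 29 symbols on GRCh38, and all 38 passed the filter on low counts, which left 18554 genes to test. The cells were ALL-SIL, a human T-ALL line (T-cell acute lymphoblastic leukaemia) in which the homeobox oncogene TLX1 is active, and the study measured polyadenylated RNA after electroporation with an siRNA, a duplex RNA that guides the cell's own machinery to cut a matching mRNA. Of the 9 libraries, 3 were titled TLX1_siRNA1, 3 TLX1_siRNA2 and 3 NTC_siRNA (siRNA1, siRNA2 and NTC below), with replicate numbers 1, 2 and 3 under each title. All were of the same line, grown in RPMI with fetal bovine serum and electroporated; the sources used here give no harvest time, siRNA dose or siRNA sequence. The labels do not say what a replicate number stands for, nor whether the replicates came from separate cultures; p-values therefore measure the spread between these libraries, which may be technical.

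Before S phase, CDC6 and CDT1 load the MCM2 to MCM7 helicase at replication origins, a step called licensing that geminin (GMNN) restrains. Cyclin E activates CDK2 at the G1/S transition, and E2F transcription factors, once freed from the retinoblastoma protein, drive transcription of most genes of this list. CDC45, GINS and MCM10 then activate the helicase, and PCNA, polymerases and repair factors work at the moving fork. T-ALL cell lines cycle continuously, and these mRNAs rise and fall with the phase of each cell. In a bulk sample, fewer cells in S phase and less of these mRNAs per cell cannot be told apart.

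The libraries held between 58305492 and 99524663 gene counts, and no member fell below 433 counts in any of them. TLX1 went against its labels: it stood at 402, 452 and 401 CPM (gene counts scaled to a common library total) under the siRNA1 label and at 198, 225 and 185 CPM under the siRNA2 label, against 179, 168 and 183 CPM under the NTC label. No difference between labels is therefore taken to follow from less TLX1. The number 1 libraries also stood apart. CDKN2A, whose products inhibit CDK4/6 and MDM2, had 93, 60 and 62 counts in the number 1 libraries labelled siRNA1, siRNA2 and NTC, and 0 in the other 6; the homeobox gene TLX3 had 54, 41 and 33 counts there and 0 in the other 6. The share of counts from mitochondrial genes was 4.24% to 4.68% in number 3, 4.48% to 5.58% in number 2 and 5.4% to 5.83% in number 1. Of 16 T-ALL and T cell markers 15 had a mean of at least 1 CPM, against 3 of 6 B cell, 0 of 6 myeloid, 0 of 6 erythroid and megakaryocyte and 1 of 6 epithelial and fibroblast markers; HBA1, PF4 and KRT18 had 0 counts in all 9 libraries. The summed B cell markers were 22.6 to 27.4 CPM in siRNA1, 20.5 to 27.2 CPM in siRNA2 and 25.7 to 31.9 CPM in NTC libraries.

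By their median, the 38 genes were expressed well above the typical gene. Their median level was 35.5 RPKM (CPM per kilobase of merged exons, here the mean of 9 libraries), against 2.55 RPKM over all genes tested, and each of the 38 lay above that overall median. PCNA, the sliding clamp, stood highest at 442.1 ± 68.2 RPKM (SD, n = 9). The helicase subunits followed, with MCM3 at 250.5 RPKM, MCM7 at 207.8 RPKM and MCM4 at 159.5 RPKM. The lowest levels were those of HELLS, a chromatin remodeller, at 9.97 RPKM, TIPIN, a fork protection factor, at 9.24 RPKM, and CCNE1, cyclin E1, at 3.57 ± 1.27 RPKM. CCNE1 stood at 2.13 RPKM in its lowest library, below the overall median. The genes also differed in how far apart their libraries lay: the highest library was 2.76 times the lowest for UNG, 2.67 times for CCNE1 and 2.17 times for RRM2, and 1.16 times for RPA2, a subunit of the single-stranded DNA binding protein. Among the 38, 21 overlap another annotated gene somewhere between start and end, introns included. Reads there cannot be told apart by strand in these libraries, and which overlaps touch exons was not examined. Pseudogenes are named after 6 of the 38 (FEN1, PCNA, RAD51AP1, RPA2, RRM2 and UNG). Both can make counts less certain, by an amount that was not measured.

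**Figure D1:**
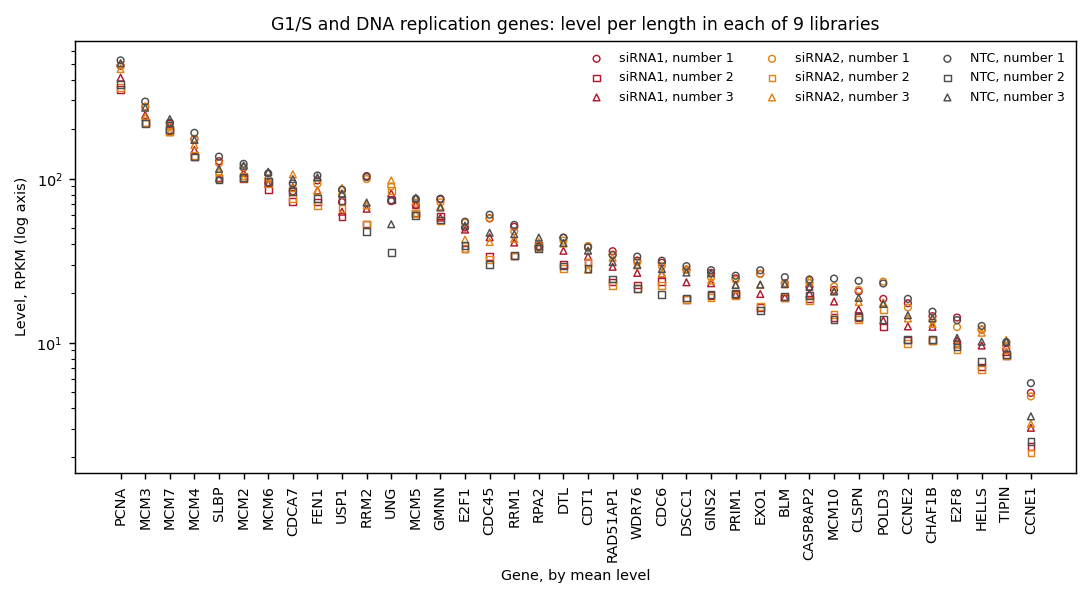
Level of each of the 38 genes (RPKM, log axis) in each of the 9 libraries, ordered by mean; colours give the siRNA label and symbols the replicate number. Levels run from 442.1 RPKM for PCNA to 3.57 RPKM for CCNE1, and for RRM2, CDC45 and CCNE1 the number 1 circles sit apart from the number 2 squares.

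The promoters of 30 of the 38 genes were in the RefSeq table used here (GRCh38.p14, 250 bases before to 50 bases after a transcription start). They were searched on both strands for the E2F words TTTCCCGC, TTTCGCGC, TTTGCCGC and TTTGGCGC, and for the CCAAT box, CCAAT, which NF-Y binds. An E2F word occurred in 18 of the 30 (60%), against 25 of 74 other replication and G1/S genes (33.8%), 3 of 25 G2/M genes (12%) and 3.99% of all 27305 genes in the table. CCAAT occurred in 22 of the 30 (73.3%), against 51.4% of the 74 other replication and G1/S genes, 88% of the G2/M genes and 39.7% of all genes. A match is a word in the window and not a measured binding site, and words on opposite strands can share bases. The promoters below are shown because they hold the words in different arrangements, for an E2F factor (E2F1), a licensing gene (MCM6), the gene with the largest fold change by label (UNG) and the gene with the smallest p by replicate number (RRM2). Capitals mark E2F words in the first 3 sequences and CCAAT in RRM2, each read 5′ to 3′ along the gene's strand.
E2F1, chr20:33686336-33686635, minus strand: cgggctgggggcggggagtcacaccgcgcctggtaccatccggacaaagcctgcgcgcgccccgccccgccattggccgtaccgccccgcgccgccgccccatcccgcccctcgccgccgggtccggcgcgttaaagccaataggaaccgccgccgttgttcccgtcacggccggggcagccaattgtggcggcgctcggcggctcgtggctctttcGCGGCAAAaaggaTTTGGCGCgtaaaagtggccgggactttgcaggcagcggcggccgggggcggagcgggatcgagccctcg
MCM6, chr2:135876394-135876693, minus strand: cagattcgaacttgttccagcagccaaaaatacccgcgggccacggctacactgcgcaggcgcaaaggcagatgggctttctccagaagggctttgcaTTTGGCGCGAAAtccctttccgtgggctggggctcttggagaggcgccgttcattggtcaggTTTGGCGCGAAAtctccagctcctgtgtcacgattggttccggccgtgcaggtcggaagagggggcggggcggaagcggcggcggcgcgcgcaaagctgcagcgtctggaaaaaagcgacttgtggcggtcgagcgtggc
UNG, chr12:109097922-109098221, plus strand: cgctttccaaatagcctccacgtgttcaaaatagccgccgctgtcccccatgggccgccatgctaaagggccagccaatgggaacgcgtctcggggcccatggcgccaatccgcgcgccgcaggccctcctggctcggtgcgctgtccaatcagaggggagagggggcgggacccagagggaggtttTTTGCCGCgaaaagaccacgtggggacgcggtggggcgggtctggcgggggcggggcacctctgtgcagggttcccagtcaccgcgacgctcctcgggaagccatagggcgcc
RRM2, chr2:10122489-10122788, plus strand: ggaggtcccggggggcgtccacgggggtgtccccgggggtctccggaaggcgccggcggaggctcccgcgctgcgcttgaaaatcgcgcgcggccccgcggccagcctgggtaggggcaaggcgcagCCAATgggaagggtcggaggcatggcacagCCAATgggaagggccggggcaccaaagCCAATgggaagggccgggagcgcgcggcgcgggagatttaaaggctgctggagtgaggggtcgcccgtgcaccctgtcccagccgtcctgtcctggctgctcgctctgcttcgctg
The E2F words of E2F1 began 33 and 20 bases before the start. MCM6 held 2 blocks in which words on opposite strands overlap, at 152 and 148 and at 90 and 86 bases before the start. UNG had 1 word, 63 bases before the start, and RRM2 had none but held CCAAT at 123, 93 and 66 bases. Where a gene had several listed starts, the one with the most words was taken.

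The 38 genes passed by replicate number far more often than by siRNA label. Most were lowest in the number 2 libraries and highest in the number 1 libraries, under each label. The number terms passed for 35 of the 38 genes in a fit of label plus number (edgeR quasi-likelihood F test, Benjamini-Hochberg adjusted p under 0.05 over all genes tested, the threshold throughout), against 35.8% of all genes tested. The 3 others, named after their values were seen, were MCM6 (edgeR adjusted p = 0.053), MCM7 (0.222) and RPA2 (0.348). In number 2 against number 1, 34 of the 38 were lower and 0 were higher, where 11.4% of all genes were lower. TIPIN, MCM6, MCM7 and RPA2 did not pass, also named after their values were seen. The median log2 fold change of the 38 was -0.46, against 0.01 over all genes tested. The values of all 3 number 2 libraries lay below those of all 3 number 1 libraries for 34 genes (16.6% of all genes).

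The number 1 libraries carried the CDKN2A and TLX3 counts, and the genes also differed between numbers 3 and 2, a comparison of the other 6 libraries. In number 3 against number 2, 27 of the 38 were higher and 0 were lower, where 10.7% of all genes were higher, and the fold change lay above 0 for all 38, with a median log2 value of 0.30 against 0.01 over all genes. For 25 of the 38 all number 2 libraries lay below all number 3 libraries (13.3% of all genes). In number 3 against number 1, 15 of the 38 were lower and 0 were higher, where 9.96% of all genes were lower, with a median log2 fold change of -0.16. Under each of the 3 labels, number 1 was highest and number 2 lowest for 25 of the 38 genes (3.02% of all genes).

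**Figure D2:**
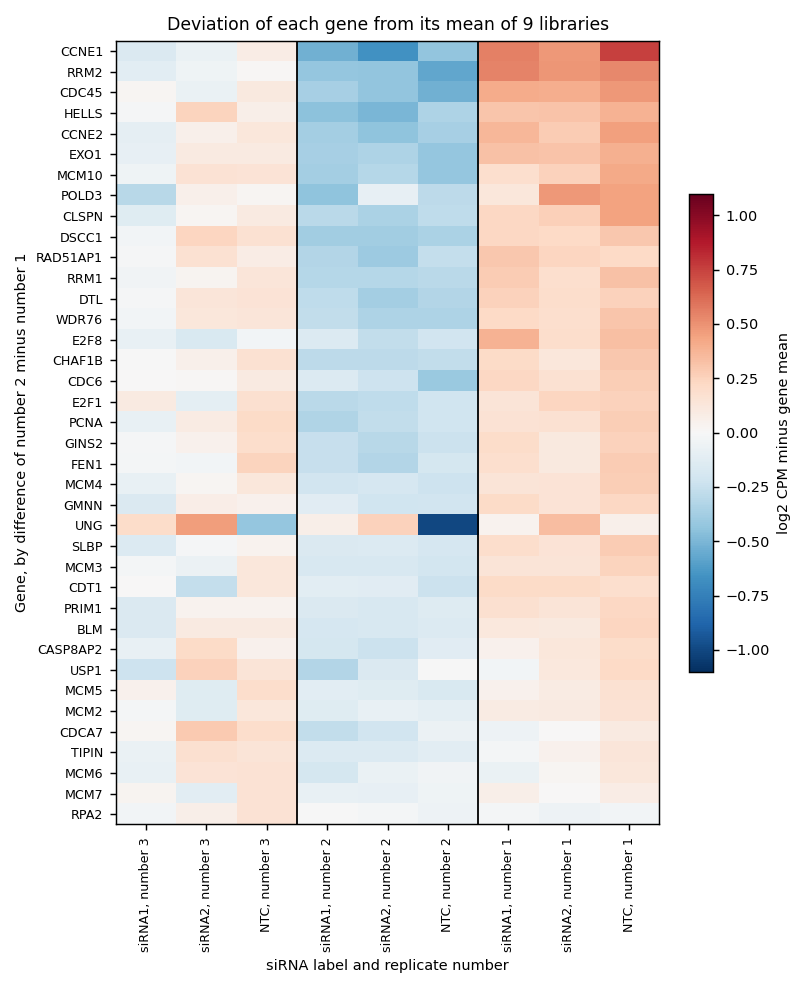
Each gene's log2 CPM minus its mean over the 9 libraries, with libraries grouped by replicate number and genes ordered by the difference of number 2 minus number 1. The number 2 columns are blue for nearly all genes under each label, RPA2 and MCM7 are near white throughout, and UNG differs from the others in its NTC libraries of numbers 2 and 3.

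Of the 38, CCNE1 and RRM2 had the largest fold changes of number 2 against number 1. RRM1, the other gene of nucleotide supply, had a smaller log2 value of -0.57. RRM2, the regulated subunit of ribonucleotide reductase (chromosome 2 from 10120698 to 10131419), whose promoter is printed above, stood at 349.4, 366.3 and 381 CPM in the number 3 libraries labelled siRNA1, siRNA2 and NTC, at 282.1, 279.9 and 254.8 CPM in number 2, and at 552.6, 529.9 and 545.4 CPM in number 1. The number 2 level was close to 0.50 of the number 1 level under every label, and the groups did not overlap. The log2 fold change of number 2 against number 1 was -0.995 (SE 0.06, edgeR adjusted p = 2.78e-10). CCNE1, cyclin E1 (chromosome 19 from 29811898 to 29824308), had 7.73, 8.17 and 9.09 CPM in number 3, 5.96, 5.43 and 6.37 CPM in number 2, and 12.6, 12 and 14.5 CPM in number 1, in the same order of labels. It had the largest fold change of the 38, at a log2 value of -1.14 for number 2 against number 1 (SE 0.08, edgeR adjusted p = 2.63e-09), and the lowest level. Its paralogue CCNE2 had 55.4, 61.9 and 64.8 CPM in number 3, 45.8, 43.6 and 46.2 CPM in number 2, and 76.6, 72.2 and 81.5 CPM in number 1. Both cyclins were lowest in number 2 and highest in number 1 with no overlap, CCNE2 with a log2 fold change of -0.76 for number 2 against number 1 (SE 0.07, edgeR adjusted p = 3.23e-08).

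All 6 genes of G1/S control were lower in number 2 than in number 1, with a median log2 fold change of -0.54. E2F1, the activator, averaged 95.4 ± 2.57 CPM in number 2 and 132.7 ± 5.74 CPM in number 1 (SD, n = 3 each). Averages by number, here and below, take 1 library of each label. Their SD therefore spans the labels and is not a spread between replicates. E2F8, a repressor of the family, averaged 39.1 ± 1.59 CPM in number 2 and 55.9 ± 3.8 CPM in number 1 (SD, n = 3 each). DTL, which directs CDT1 to degradation, and CASP8AP2, a histone gene coactivator, completed the group.

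Among the 9 licensing genes 7 were lower in number 2 than in number 1, with a median log2 fold change of -0.36. That median is the nearest to 0 among the 7 groups of roles. MCM4 averaged 957.7 ± 13.1 CPM in number 2 and 1255 ± 63.8 CPM in number 1, while MCM7 averaged 864.1 ± 14.1 and 942.8 ± 26.5 CPM in number 2 and number 1 (SD, n = 3 each). The loading factors CDC6 and CDT1, and GMNN, which restrains licensing, all passed as lower. The 3 helicase activation genes were lower by a median log2 value of -0.65. CDC45, which travels with the helicase (chromosome 22 from 19479459 to 19520612), had 125.2, 117.1 and 133.3 CPM in the number 3 libraries labelled siRNA1, siRNA2 and NTC, 95.9, 91.5 and 85.4 CPM in number 2, and 163.6, 162.6 and 171.8 CPM in number 1. The numbers did not overlap, and the log2 fold change of number 2 against number 1 was -0.87 (SE 0.07, edgeR adjusted p = 4.04e-09).

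Of the 8 fork genes 6 were lower in number 2 than in number 1, with a median log2 fold change of -0.46. PCNA averaged 531.8 ± 19.7 CPM in number 2 and 738.9 ± 31.3 CPM in number 1 (SD, n = 3 each). RPA2 did not follow: its log2 fold change was 0.01 (SE 0.06, edgeR adjusted p = 0.929), with averages of 77.9 ± 1.57 CPM in number 2 and 77.4 ± 1.01 CPM in number 1. The 4 histone and chromatin genes and the 6 repair genes all passed as lower. For UNG, a repair gene, the difference lay mostly in the NTC libraries, at 90.95 CPM in number 2 and 189.4 CPM in number 1. UNG had 190.8 and 187.5 CPM under siRNA1, and 217.1 and 230.8 CPM under siRNA2, in the same order of numbers. HELLS (chromosome 10 from 94501434 to 94613905) had 97.7, 116.9 and 103.1 CPM in number 3, 72.1, 69.5 and 78 CPM in number 2, and 122, 122.5 and 128.6 CPM in number 1, and a log2 fold change of -0.76 for number 2 against number 1 (SE 0.07, edgeR adjusted p = 5.67e-08). EXO1, a nuclease of mismatch repair and end resection (chromosome 1 from 241847967 to 241895148), had 82.2, 93.4 and 93.8 CPM in number 3, 67.9, 68.9 and 64.9 CPM in number 2, and 109, 108.7 and 114.6 CPM in number 1. Its log2 fold change of number 2 against number 1 was -0.72 (SE 0.07, edgeR adjusted p = 5.84e-08), and neither HELLS nor EXO1 overlapped between number 2 and the others. The 18 members with an E2F word had a median log2 fold change of -0.38, and the 12 without one had -0.53.

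Other genes of the pathway and of the next phase were counted for the same differences. Of 85 further replication and G1/S genes tested, 54 were lower and 3 higher in number 2 against number 1, with a median log2 fold change of -0.28. Over all genes 11.4% were lower and 10.8% higher. Among the lower genes the smallest p values were those of TK1, thymidine kinase, with a log2 fold change of -1.1 (SE 0.07, edgeR adjusted p = 1.53e-10), of CDKN2A, which is at 0 counts in number 2, and of BRCA2, with -0.71 (SE 0.07, edgeR adjusted p = 8.59e-08). The 3 higher genes were the cyclin D gene CCND2, the CDK inhibitor CDKN1B and the E2F partner TFDP2. CCND2 had 384, 293 and 398 counts in the number 3 libraries labelled siRNA1, siRNA2 and NTC and 357, 288 and 416 counts in number 2, against 24, 19 and 24 counts in number 1. The 30 G2/M genes, which encode mitotic cyclins, kinases and spindle proteins, moved opposite to the 38 in both comparisons with number 2. In number 2 against number 1, 20 of 30 were higher and 0 lower, where 10.8% of all genes were higher, with a median log2 fold change of 0.39. In number 3 against number 2, 25 of 30 were lower, where 9.91% of all genes were lower, with a median of -0.40. In number 3 against number 1, 4 of 30 were higher and 4 lower, where 10.5% and 9.96% of all genes were, with a median of -0.01. The part of cell cycle phase in the members' differences was not tested.

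**Figure D3:**
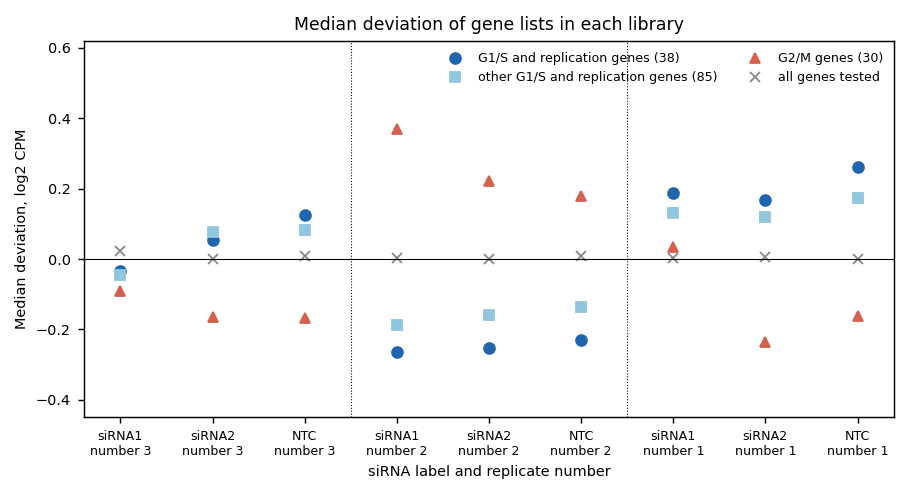
Median deviation (log2 CPM from each gene's mean of 9 libraries) of 4 gene sets in each library, by siRNA label and replicate number. The 38 genes lie at -0.26, -0.25 and -0.23 in the number 2 libraries labelled siRNA1, siRNA2 and NTC and at 0.19, 0.17 and 0.26 in number 1, the G2/M genes lie highest in number 2, and all genes tested stay near 0.

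By siRNA label the 38 genes differed little, and 0 of them passed in any of the 3 comparisons of labels (edgeR, no replicate term). For siRNA1 against NTC 1.28% of all genes passed, for siRNA2 against NTC 0%, and for siRNA1 against siRNA2 1.08%. At an unadjusted p under 0.05, 3, 1 and 1 of the 38 were past the line in these comparisons, where 10.3%, 2.11% and 10% of all genes were, and DESeq2 and limma-voom also called 0 of the 38 in each. The median log2 fold change of the 38 was -0.09 for siRNA1 against NTC and -0.05 for siRNA2 against NTC, against 0.01 and 0.00 over all genes. In these comparisons 33 and 35 of the 38 lay below 0, where 48.6% and 50.7% of all genes did. These comparisons share the NTC libraries. The pooled SD of the 38 genes' median between libraries of 1 label was 0.23 on the same scale; it includes the difference between replicate numbers that all labels share. Leaving out NTC replicate 1 turned both medians above 0, to 0.02 and 0.05, and leaving out NTC replicate 2 moved them to -0.23 and -0.20. For siRNA1 against siRNA2 the median was -0.02, and it ran from -0.17 without siRNA2 replicate 2 to 0.09 without siRNA2 replicate 1. These fits have no replicate term, and leaving out 1 library leaves the replicate numbers unequal between the labels. The 38 genes' median deviation was 0.26 in NTC number 1 and -0.23 in NTC number 2. The shifts therefore carry the difference between numbers and cannot show how stable a difference between labels is.

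Libraries of equal number deviated together, so the labels were also compared within numbers, with the number as a block. Within numbers 1, 2 and 3 the median log2 difference of the 38 was -0.08, -0.02 and -0.18 for siRNA1 minus NTC, and -0.09, -0.03 and -0.06 for siRNA2 minus NTC. For siRNA1 against NTC 21 of the 38 were lower in all 3 numbers and 0 higher, where 22.8% of all genes were lower and 23.1% higher. For siRNA2 against NTC 16 were lower in all 3 numbers and 2 (POLD3 and UNG) higher, where 13.6% of all genes were lower and 12.3% higher. With the block, 4 of the 38 passed for siRNA1 against NTC. UNG was higher, where 5.48% of all genes were higher, and USP1, POLD3 and MCM6 were lower, where 5.93% of all genes were lower. For siRNA2 against NTC UNG passed as higher, where 0.0862% of all genes were higher. For siRNA1 against siRNA2 POLD3 and USP1 passed as lower, where 5.27% of all genes were lower. The count of 3 lower genes among 38 in siRNA1 against NTC (7.89%) and that of 2 in siRNA1 against siRNA2 (5.26%) are near these shares of all genes.

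**Figure D4:**
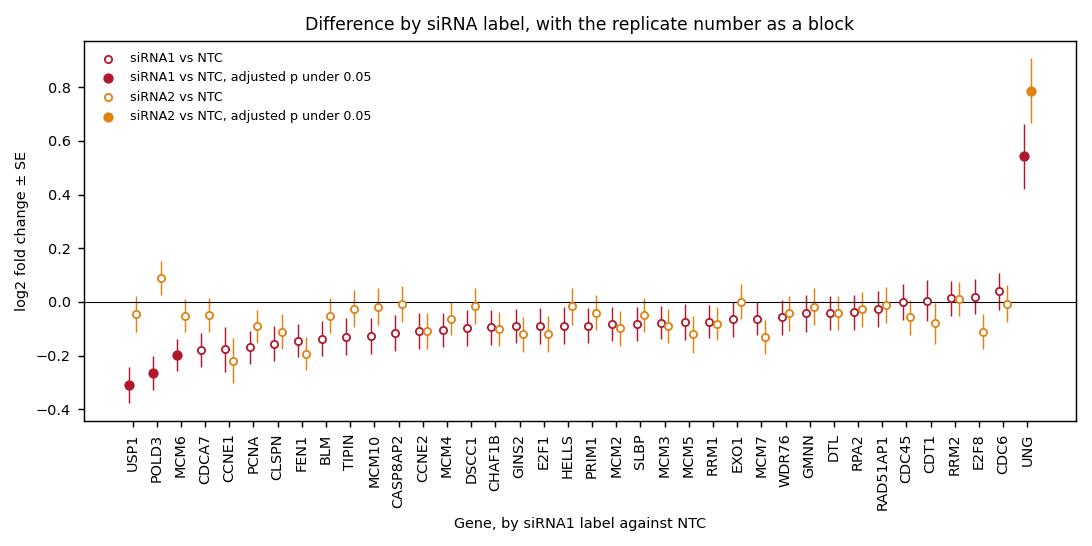
Log2 fold change with SE of each gene for siRNA1 against NTC and siRNA2 against NTC, fitted with the replicate number as a block; filled points passed at an adjusted p under 0.05. Most genes lie slightly below 0 under both labels, UNG lies at 0.54 and 0.79, and USP1, POLD3 and MCM6 passed for siRNA1; both sets share the NTC libraries.

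UNG encodes uracil-DNA glycosylase, which removes uracil from DNA (chromosome 12 from 109097574 to 109110992). It stood at 187.5, 190.8 and 209.1 CPM in replicates 1 to 3 labelled siRNA1 and 230.8, 217.1 and 250.8 CPM in those labelled siRNA2, against 189.4, 90.9 and 135.6 CPM in those labelled NTC. The siRNA2 libraries all lay above the NTC libraries, the siRNA1 libraries overlapped them through number 1, and the spread was widest in NTC. With the block its log2 fold change was 0.54 for siRNA1 against NTC (SE 0.12, edgeR adjusted p = 0.00408) and 0.79 for siRNA2 against NTC (SE 0.12, edgeR adjusted p = 0.00295). Without the block it was 0.50 (SE 0.19, edgeR adjusted p = 0.363) and 0.75 (SE 0.19, edgeR adjusted p = 1). Within numbers 1, 2 and 3 the log2 difference was -0.01, 1.07 and 0.63 for siRNA1 minus NTC, and 0.29, 1.26 and 0.89 for siRNA2 minus NTC. UNG thus did not differ in the same measure in each number. Leaving out NTC replicate 2 lowered the siRNA1 value to 0.31 with an edgeR adjusted p of 0.0502, and leaving out NTC replicate 1 raised it to 0.83 (edgeR adjusted p = 1.77e-08). Leaving out siRNA2 replicate 3 ended the siRNA2 call (log2 fold change 0.76, edgeR adjusted p = 0.212).

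POLD3, a subunit of DNA polymerase delta (chromosome 11 from 74493851 to 74669117), was lowest under the siRNA1 label in every number. It had 102, 68.8 and 75.5 CPM in replicates 1 to 3 labelled siRNA1 and 130.1, 87.9 and 96.9 CPM in those labelled siRNA2, against 126.6, 76.4 and 95 CPM in those labelled NTC. Across numbers the labels overlapped. With the block the log2 fold change was -0.27 for siRNA1 against NTC (SE 0.06, edgeR adjusted p = 0.00679) and -0.36 for siRNA1 against siRNA2 (SE 0.06, edgeR adjusted p = 0.000495). The difference of siRNA1 minus siRNA2 was nearly the same in each number, at -0.35, -0.35 and -0.36, and its call held without each of the 9 libraries in turn. The call against NTC was lost without siRNA1 replicate 1, NTC replicate 1 or NTC replicate 3, with edgeR adjusted p values of 0.0754, 0.0674 and 0.0704. Without the block the values were -0.27 (SE 0.20, edgeR adjusted p = 0.744) and -0.35 (SE 0.20, edgeR adjusted p = 0.633).

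USP1, which removes ubiquitin from PCNA and FANCD2 (chromosome 1 from 62436297 to 62451804), had 307.3, 251.1 and 268.4 CPM in replicates 1 to 3 labelled siRNA1 and 340.2, 281.8 and 374.9 CPM in those labelled siRNA2, against 365.7, 312.5 and 346.6 CPM in those labelled NTC. All 3 siRNA1 libraries lay below all 3 NTC libraries. With the block the log2 fold change was -0.31 for siRNA1 against NTC (SE 0.07, edgeR adjusted p = 0.00339), and without it -0.31 (SE 0.12, edgeR adjusted p = 0.333). For siRNA1 against siRNA2 it was -0.27 with the block (SE 0.07, edgeR adjusted p = 0.012) and -0.27 without it (SE 0.12, edgeR adjusted p = 0.449). The block's call against NTC was lost without siRNA1 replicate 3 (edgeR adjusted p = 0.0529), and that against siRNA2 without siRNA1 replicate 3 (log2 fold change -0.20, edgeR adjusted p = 0.156) or siRNA2 replicate 3 (-0.17, edgeR adjusted p = 0.0705).

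MCM6 (chromosome 2 from 135839626 to 135876426), whose promoter is among those printed, had 386.9, 354.6 and 383.6 CPM in replicates 1 to 3 labelled siRNA1 and 411.2, 385.7 and 451.4 CPM in those labelled siRNA2, against 443.7, 395.3 and 454.2 CPM in those labelled NTC. All siRNA1 libraries lay below all NTC libraries. Its log2 fold change for siRNA1 against NTC was -0.20 with the block (SE 0.06, edgeR adjusted p = 0.0329) and -0.20 without it (SE 0.09, edgeR adjusted p = 0.454). The block's call was lost in 5 of the 9 fits that leave out 1 library (siRNA1 replicates 1, 2 and 3 and NTC replicates 1 and 3). For siRNA1 against siRNA2 MCM6 had a log2 fold change of -0.15 and did not pass (edgeR adjusted p = 0.652 without the block and 0.131 with it). For siRNA2 against NTC the next smallest unadjusted p values after UNG were those of MCM7, with a log2 fold change of -0.13 (SE 0.08, edgeR adjusted p = 1), and of FEN1, the flap endonuclease, with -0.20 (SE 0.15, edgeR adjusted p = 1).

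**Figure D5:**
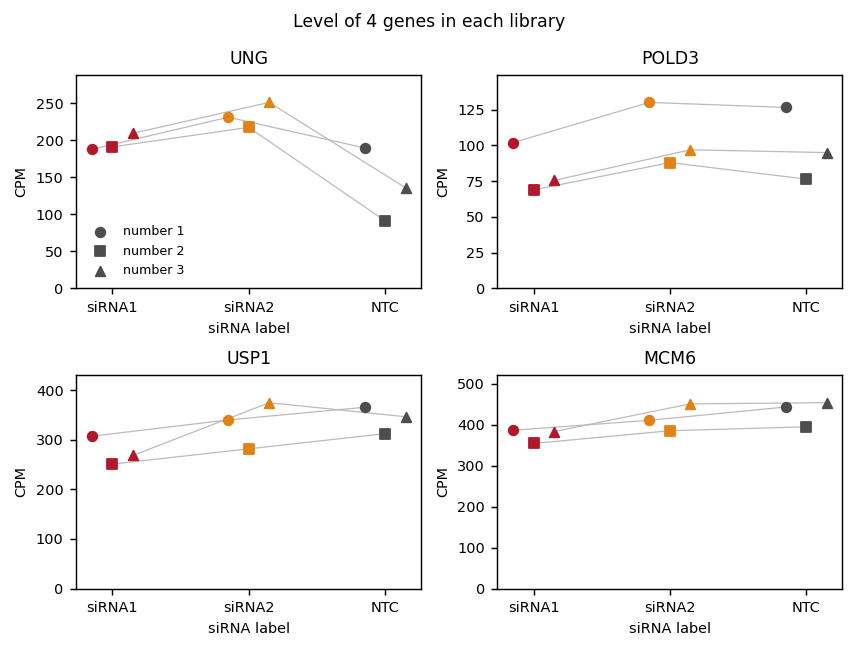
CPM of UNG, POLD3, USP1 and MCM6 in each library by siRNA label; lines join libraries of equal replicate number. UNG stands at 90.9 and 135.6 CPM in NTC replicates 2 and 3, and POLD3 lies lowest under siRNA1 in every number.

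Outside the 38, 3 of the 85 further replication and G1/S genes (3.53%) passed for siRNA1 against NTC without the block, where 1.28% of all genes did. All 3 were lower. They were TFDP2, an E2F partner, with a log2 fold change of -0.62 (SE 0.10, edgeR adjusted p = 0.00959), UHRF1, which recruits DNMT1, with -0.50 (SE 0.09, edgeR adjusted p = 0.016), and the maintenance methyltransferase DNMT1, with -0.57 (SE 0.10, edgeR adjusted p = 0.0179). For siRNA1 against siRNA2 without the block 2 of the 85 passed (2.35%), where 1.08% of all genes did. These were TFDP2, with -0.54 (SE 0.10, edgeR adjusted p = 0.0246), and DNMT1, with -0.50 (SE 0.10, edgeR adjusted p = 0.0393). With the block, 3 of the 85 were higher for siRNA1 against NTC (3.53%) and 8 lower (9.41%), where 5.48% of all genes were higher and 5.93% lower. Of the 30 G2/M genes 9 were higher for siRNA1 against NTC with the block, and 14 for siRNA1 against siRNA2, where 5.29% of all genes were higher.

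The 3′ UTRs of 37 of the 38 were searched for the word GCAGTAC, which an earlier search of these same libraries had picked out, so its count here is a description. The word occurred in 1 of the 37 (2.7%), against 5.16% of 12277 tested genes with a 3′ UTR. The gene was POLD3, which holds it 2 times in a 3′ UTR of 2291 bases on the plus strand (GRCh38), shown with 10 bases on each side and the word in capitals.
POLD3 3′ UTR, chr11:74641214-74641240, plus strand: ttgtcttcctGCAGTACcacacttctg
POLD3 3′ UTR, chr11:74641330-74641356, plus strand: cctccattatGCAGTACacggacacct
A word match is a description of the sequence, and its part in the POLD3 difference was not tested.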

How the data were processed

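Polyadenylated RNA of 9 ALL-SIL libraries was sequenced from an unstranded TruSeq mRNA kit, per the labels' protocols. The deposited values are counts: whole numbers of reads per gene, not normalized, as the values themselves show, on GRCh38 per the submitters' processing notes. The sources used here name no aligner or annotation. The column counted without regard to strand was used, and 4 summary lines per table were left out (genes took 75.5% to 77.6% of reads). Of 58096 identifiers 57447 matched GENCODE 29 by identifier. Replicates were not repeats of each other: chi-square per degree of freedom was 32.05 to 53.8.

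Genes were tested with edgeR 4.0.16 (R 4.3.3): TMM factors, filterByExpr by label (minimum count 10, minimum total 15), quasi-likelihood tests over 18554 genes, Benjamini-Hochberg adjustment over all of them, with labels as groups. Each SE was taken as the size of the log2 fold change divided by the root of its F statistic. CPM values other than those of TLX1 and the markers use TMM factors, and deviations use a prior count of 2. The fit with the replicate number as a block was the alternative, and replicate numbers were tested in it. Deviations from label means correlated at 0.383 to 0.623 for all 9 pairs of equal number, so the numbers pair the libraries. The 18 other pairs correlated at -0.445 to 0.0693. Deviations cancel out within a label, so positive values for equal numbers push the others down, and these are no separate support. The pairing comes from these data and the titles. DESeq2 1.42.0 and limma-voom (limma 3.58.1), other scalings and filters, and libraries left out were alternatives, and the scripts were tested on simulated data. Python 3.11.15 was used for sequences and figures.

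Members printed with a p are those past the threshold with or without the block, the 3 with the smallest p per label comparison and the 6 with the smallest p by number; of the other lists, at most 3 genes each way. Members and lists were chosen with earlier results of these data known.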

Additional observations from a re-analysis of the deposited data

Results flagged for a closer look

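2 genes differed between the TLX1 siRNA labels when libraries of equal replicate number were compared, by a test of the difference itself. They are 5.26% of the 38, and 5.27% of all genes were lower in the same test, so the count says nothing particular of the 38. POLD3 had a log2 fold change of -0.36 for siRNA1 against siRNA2 (edgeR adjusted p = 0.000495, lower in 3 of 3 numbers). USP1 had -0.27 (edgeR adjusted p = 0.012, lower in 3 of 3 numbers), and within numbers 1, 2 and 3 its log2 difference was -0.15, -0.17 and -0.48. Neither passed without the block, and TLX1 mRNA itself stood higher under the siRNA1 label than under the siRNA2 label.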

How the results depend on the processing

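With the replicate block the number of the 38 genes called was 4 for siRNA1 against NTC, 1 for siRNA2 against NTC and 2 for siRNA1 against siRNA2, where the fit without it called 0 in each. With no filter beyond 1 count, 1 gene, UNG, was called against NTC under each label (edgeR adjusted p = 0.000322 for siRNA1 and 3.34e-08 for siRNA2). Other scalings, the CPM filter, DESeq2, limma-voom, fits of only the compared labels and fits without the replicate 1 libraries also called 0. With 1 library left out the counts without the block ran from 0 to 1 for siRNA1 against NTC (1, UNG, without NTC replicate 1) and stayed at 0 for the other comparisons, and the medians ran from -0.23 to 0.02, from -0.20 to 0.05 and from -0.17 to 0.09. The count by replicate number ran from 31 to 34, and was 35 with DESeq2 and 36 with limma-voom. Without the block, leaving out 1 library leaves the replicate numbers unequal between labels, so the ranges of those medians carry the difference between numbers.

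With the block and 1 library left out, the counts ran from 2 to 6 for siRNA1 against NTC, from 0 to 1 for siRNA2 against NTC and from 1 to 3 for siRNA1 against siRNA2. These and the next fits with the block were added after seeing the data. With the block and without the 3 replicate 1 libraries, 2 genes (UNG, USP1) were called for siRNA1 against NTC. Without the 3 replicate 3 libraries, 2 (POLD3, USP1) were called for siRNA1 against NTC, 0 for siRNA2 against NTC and 1 (POLD3) for siRNA1 against siRNA2. Without the 3 replicate 2 libraries, 3 (POLD3, UNG, USP1) were called for siRNA1 against NTC and 1 (UNG) for siRNA2 against NTC. For siRNA1 against siRNA2 that fit called 3 (POLD3, UNG, USP1). The cause of these changes in the calls was not tested. The lowest count of any of the 38 in any library was 433.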
